A study of Rattus norvegicus with 55 samples.

Results

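The arrays described here are 22 of 55 arrays of rat kidney RNA: 11 labelled young and 11 whose description carries no stage word. They were taken from those 2 labels by a measured value, an intensity below 600 for probe set X56596_at. It is 1 of several probe sets of RT1-Bb, the beta chain of a rat class II histocompatibility molecule. The members read 80.1 to 263.0 for it, the array nearest below the threshold being young replicate 12 at 263.0. Over the whole series the array nearest above it, an immature kidney, read 1411.5, so no array lay close to 600. RT1-Bb is therefore not a result: the young members had a median of 149 and those without a stage word 157. Low and high RT1-Bb below name arrays by X56596_at only, since other RT1-Bb probe sets split otherwise. M36151cds_i_at had medians of 552 in young and 681 in no-stage-word members, but 3.0 and 2.4 in the arrays of these labels above 600. For U65217_i_at these were 398 and 422 against 20.0 and 5.3, and for M36151cds_s_at 1057.5 and 1229 against 1368 and 1573.

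All samples carry the title SHR kidney, SHR being the common abbreviation of the spontaneously hypertensive rat, and a description of Wistar-derived rat kidney. No label states an age, sex, diet or treatment, the stage of the group without a stage word is not stated, and separate animals are not named. The p-values therefore take these samples' own spread as error, and that spread may be technical only. The question the labels allow is how kidneys without a stage word differ from young ones. Each array gave 1 intensity for each of 8799 probe sets, and replicate numbers below only name arrays.

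A growing kidney adds nephron segments and the connective tissue between them, and as growth slows fewer of its cells divide and less new collagen is laid down. The tubules meanwhile take on adult transport and secretory functions. Among these is release of tissue kallikrein, a protease that frees kinins, from the connecting part of the distal nephron. Phagocytes and dendritic cells settle between the tubules and display peptides on class II molecules, whose loading needs the invariant chain (Cd74) and cathepsin S (Ctss).

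Several kidney markers were bright. Slc34a1, the proximal tubule phosphate carrier, read 13279 to 31388 over the 22 arrays, and Umod, the main protein of the thick ascending limb, 9857 to 18977. Not all were: Scnn1b of the collecting duct read 34.9 to 292 and Wt1 of podocytes 42.5 to 116. Markers of neighbouring tissues were mixed. Fabp4 of fat read 4.5 to 35.7 and Star of the adrenal gland 12.6 to 61.7. Others were brighter, with Cyp21a1 of the adrenal gland at 58.8 to 232, and Apoa1 and Fga of liver at 89.8 to 291 and 106 to 304. The Lep probe set read 2221 to 4447. Bulk RNA was measured, so fewer cells of a type and less RNA per cell cannot be told apart anywhere below.

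The arrays differ in a spike-in control. AFFX-CreX-3_at, a control transcript of phage origin that is added to the hybridisation mix, read 4806 to 8710 on 3 young arrays (replicates 3, 4 and 13) and 4 arrays without a stage word (replicates 1, 5, 9 and 10). It read 11068 to 28387 on the other 8 young and 7 no-stage-word arrays. By 2 other spike-in controls no-stage-word replicate 10 read like the arrays of high CreX. BioB was 319 and BioC 753 on it, against 113.5 to 144 and 277 to 319 on no-stage-word replicates 1, 5 and 9. On the 7 no-stage-word arrays of high CreX these were 244.5 to 586 and 514 to 1182. The CreX split, set at 9000, went with differences in far more probe sets than the label did. Between its sides 2037 of 6555 tested (31.1%) differed at a limma adjusted p of 0.05. The split therefore entered the model as a term, and values on each side are given for the genes the results turn on. The 3 young arrays of low CreX also stood apart in the RNA readouts described below, and 1 array on each side of the comparison (young replicate 12, no-stage-word replicate 14) had an 18S signal above 4000.

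With the CreX class in the model, 31 of 6555 probe sets (0.473%) differed between kidneys without a stage word and young kidneys at an adjusted p of 0.05 in limma. Of these, 10 (0.153%) were higher and 21 (0.32%) lower without a stage word, and 771 passed an unadjusted p of 0.05. The lower ones include 2 fibrillar collagens, 3 genes of chromosome replication and segregation, the lactate carrier Slc16a1 and the transferrin receptor. The higher ones include tissue kallikrein, the invariant chain, cathepsin S and the chemokine Cxcl13. Without the 3 young arrays of low CreX, an alternative added after seeing the data, only 3 passed (AF007758_g_at, U75405UTR#1_f_at and Col1a1), and the other 28 kept their direction. Of the 31, 25 had a single symbol and stood for 24 genes. With 1 probe set a gene, 21 of 3833 genes (0.548%) passed, 7 higher (0.183%) and 14 lower (0.365%). Without the 2 arrays of high 18S the count was 62 and included all 31, without young replicate 4 or young replicate 13 it was 18, and without young replicates 6 or 12 it was 48 or 61.

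The collagen genes fell. Col3a1, a chain of type III collagen, read 636 to 1203 on the young arrays (median 870.0) and 274 to 585 on those without a stage word (median 484). No array of either group reached the other's range. The difference was -0.90 ± 0.14 (SE, n = 11 and 11) on the log2 scale, 1.87-fold lower, with a limma adjusted p of 0.00251. Col1a1, the main chain of type I collagen, read 1256 to 2453 (median 1721) against 525.5 to 1672 (median 1122). Only 1 array without a stage word, replicate 10, lay inside the young range, and the fitted change was -0.71 ± 0.14 (SE), adjusted p 0.0151. The lowest of all was no-stage-word replicate 14, whose 18S signal was also the highest of the 22 arrays. Other probe sets of both genes pointed the same way without passing: -0.38 for Col3a1 M21354_s_at and -0.46, -0.39 and -0.26 for 3 of Col1a1. The extracellular matrix list did not move as a whole: these 2 were the only members to pass of 29 tested, 16 were below 0, and the list's median was -0.02 beside 0.02 for all genes. Of all 3833 genes tested, 2110 lay above 0. Inside low CreX the list's median was -0.25 and inside high CreX 0.04.

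Genes of dividing cells fell as well. Top2a, the topoisomerase that untangles replicated DNA, read 254 to 357 on young arrays (median 312) and 130 to 272 on the others (median 170). The groups overlapped by 2 arrays, and the change was -0.71 ± 0.12 (SE), adjusted p 0.00273. Cdk1, which encodes the main mitotic kinase, read 106 to 224 (median 167) against 58.0 to 140 (median 110.1), a change of -0.64 ± 0.13 (SE), adjusted p 0.0209. Smc4, a condensin subunit that compacts chromosomes, read 95.5 to 287 (median 162) against 36.7 to 151 (median 79.0), and fell by 0.91 ± 0.17 (SE), adjusted p 0.00836. On every array without a stage word all 3 genes lay below the young median. A second Top2a probe set gave -0.29 and did not pass. Of the 18 tested genes of the cell cycle list only Top2a and Cdk1 passed, 9 lay below 0 and the median was -0.03. Inside low CreX that median was -0.32 and inside high CreX -0.02. Smc4 was not on the list.

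The promoters of the 3 genes are printed because each gene was lower without a stage word. Each is the 250 bases before the gene start, 5′ to 3′ along the gene, from the RefSeq table of build GRCr8. Capitals mark the CCAAT box, which reads ATTGG when it lies on the opposite strand, and the cell-cycle element TTTGAA, which then reads TTCAAA. Both strands were searched, and no match overlapped another. Top2a lies at chr10:84473094-84473343 on the minus strand, Cdk1 at chr20:19265043-19265292 and Smc4 at chr2:155550012-155550261, both on the plus strand.
Top2a: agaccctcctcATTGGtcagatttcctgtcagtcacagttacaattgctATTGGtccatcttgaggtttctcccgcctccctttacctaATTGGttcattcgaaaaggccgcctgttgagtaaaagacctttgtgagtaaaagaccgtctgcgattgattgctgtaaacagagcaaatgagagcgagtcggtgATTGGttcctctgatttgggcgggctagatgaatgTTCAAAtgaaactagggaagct
Cdk1: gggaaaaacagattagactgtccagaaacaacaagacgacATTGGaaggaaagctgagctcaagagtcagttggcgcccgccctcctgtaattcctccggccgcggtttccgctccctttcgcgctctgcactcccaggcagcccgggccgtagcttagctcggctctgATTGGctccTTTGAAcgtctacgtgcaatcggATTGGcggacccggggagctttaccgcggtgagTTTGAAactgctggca
Smc4: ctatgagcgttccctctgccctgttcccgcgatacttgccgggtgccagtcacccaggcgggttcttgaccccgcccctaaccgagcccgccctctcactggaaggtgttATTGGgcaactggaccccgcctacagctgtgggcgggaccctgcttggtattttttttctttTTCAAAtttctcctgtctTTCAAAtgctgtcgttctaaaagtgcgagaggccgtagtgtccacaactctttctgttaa
Top2a held 4 CCAAT and 1 TTTGAA, Cdk1 3 and 2, and Smc4 1 and 2. Of 33469 rat promoter windows of this length 34.0% held CCAAT, 16.2% TTTGAA and 5.87% both. These matches describe the letters of the windows only. The table matched 19 of the 24 named genes. Without a match were Cd82, Col1a1, Col3a1, Lypla1 and Slc6a13.

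**Figure D1:**
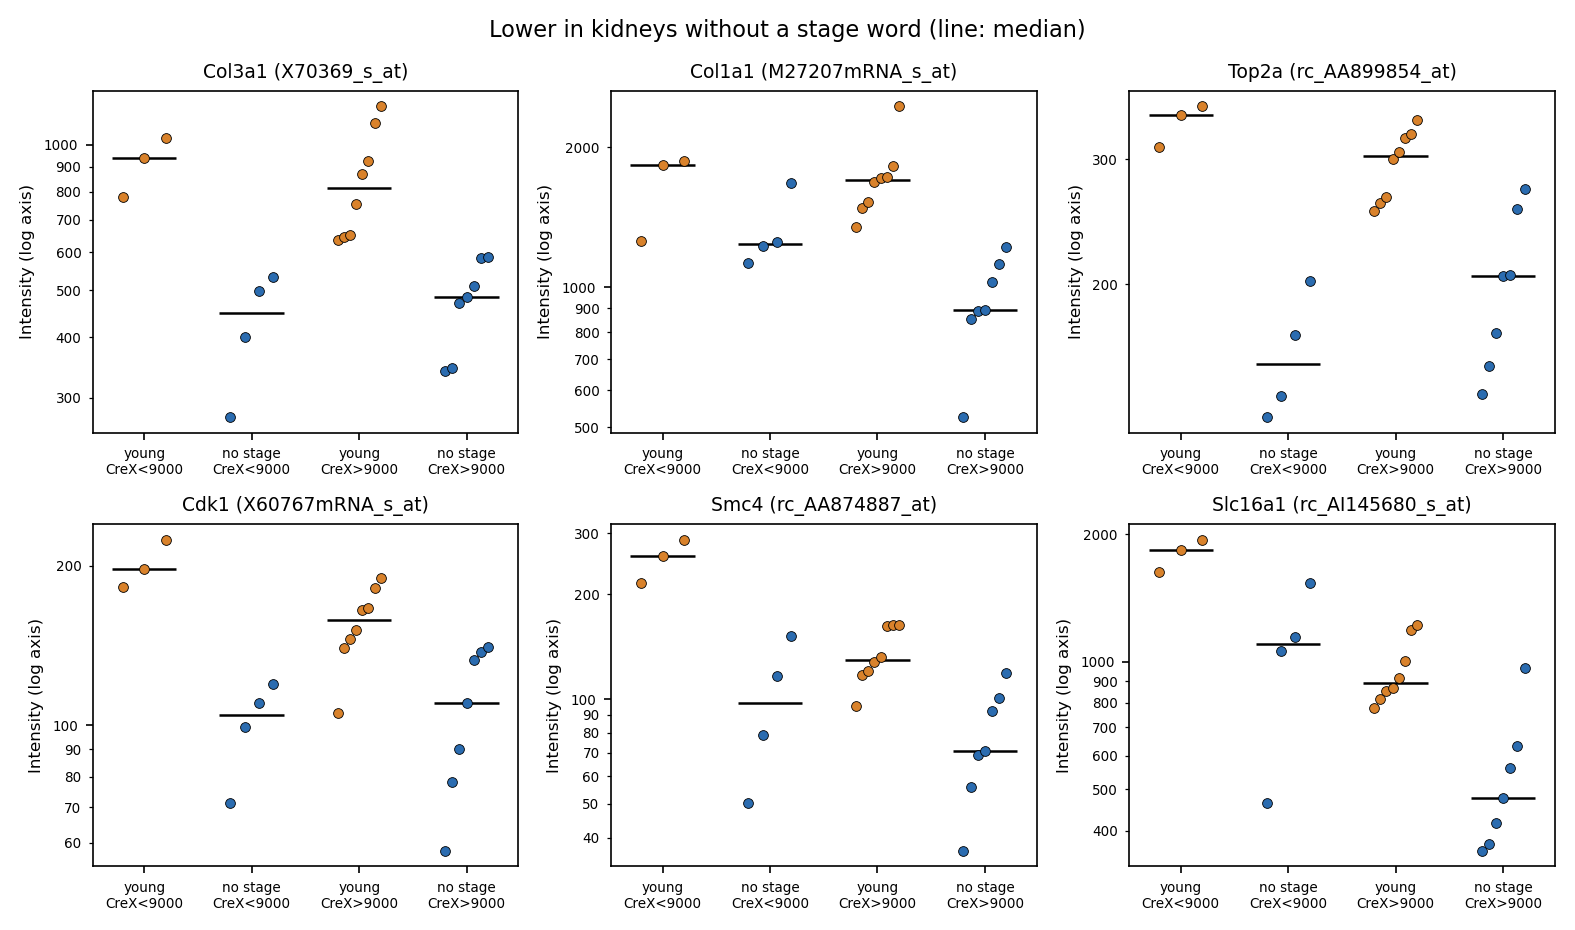
Intensity on a log axis (vertical) of 6 genes lower in kidneys without a stage word, 1 point an array, by label and by CreX below or above 9000 (3, 4, 8 and 7 arrays); lines are medians. Col3a1 read at most 585 on arrays without a stage word and at least 636 on young ones, while Slc16a1 also read higher at low CreX under both labels.

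Slc16a1 and Tfrc were lower. Slc16a1, the monocarboxylate carrier for lactate and ketone bodies, read 776.0 to 1942 on young arrays (median 1002) and 359 to 1531 on the others (median 561) with probe set rc_AI145680_s_at. Its change was -0.87 ± 0.17 (SE), adjusted p 0.0161, and its second probe set gave -0.78 ± 0.18, adjusted p 0.0375. The first stayed called in all 22 fits that left out 1 array, the second in only 9. The ranges of Slc16a1 overlapped, and both labels read higher at low CreX. Tfrc, the receptor that takes up transferrin-bound iron, read 58.9 to 281 (median 130.0) against 18.0 to 173 (median 83.4) and changed by -0.84 ± 0.19 (SE), adjusted p 0.0452. This call held in only 7 of the 22 fits that left out 1 array. Tfrc was the 1 gene to pass of 9 tested on the erythroid and haem list, where 8 lay below 0 and the median was -0.17. The summed erythroid level was 7511 to 13944 in young and 6911 to 13349 in no-stage-word arrays, and its part in the Tfrc result was not tested.

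Among the other lower genes, Nubpl, needed to assemble respiratory complex I, had the largest change at -1.26 ± 0.26 (SE), from a median of 139 in young to 35.0 in no-stage-word arrays, adjusted p 0.0216. Eif5, a translation initiation factor, changed by -0.93 ± 0.15, adjusted p 0.00273. Apcs, the serum amyloid P component, read 983 to 2144 against 446 to 1462 and changed by -0.81 ± 0.12, adjusted p 0.00108. All 3 had overlapping ranges. The remaining lower genes changed by -0.53 to -0.74: Dgkg, a diacylglycerol kinase, Pdcd10, Folh1, the folate hydrolase of the cell surface, Lypla1, which removes palmitate from proteins, and Pigf, of glycolipid anchor synthesis. Pdcd10 stayed called in 13 of the 22 fits without 1 array. The smallest adjusted p belonged to an unnamed probe set, AF007758_g_at, at 303.1 to 732 in young and 168 to 302.6 in no-stage-word arrays. It changed by -0.99 ± 0.12 (SE), adjusted p 0.000278, and with Col3a1 it was 1 of 2 probe sets of 6555 (0.0305%) whose groups did not overlap at all with the arrays without a stage word lower. None was wholly higher (0%). A further 4 lower probe sets without a single gene name changed by -0.70 (U75405UTR#1_f_at), -0.70 (rc_AI008836_s_at), -0.66 (X52625_at) and -0.51 (rc_AI012604_at).

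Cd74, Ctss and Mfge8 rose in kidneys without a stage word. Cd74, the invariant chain that guards the peptide groove of class II molecules, read 3065 to 5146 on young arrays (median 3744) and 4468 to 6970 on the others (median 5682). Its change was 0.53 ± 0.10 (SE, n = 11 and 11), adjusted p 0.00836, and all 11 arrays without a stage word lay above the young median. The other 3 Cd74 probe sets gave 0.34, 0.27 and 0.24 and did not pass. Ctss, which cleaves the invariant chain, read 791 to 1309 (median 1068) against 1124 to 2070 (median 1455) and rose by 0.49 ± 0.11 (SE), adjusted p 0.0291. Mfge8, which bridges dying cells to phagocytes, rose by 0.50 ± 0.11 (SE), adjusted p 0.0317. Ctss and Mfge8 stayed called in 15 and 13 of the 22 fits without 1 array.

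Cxcl13, the chemokine that draws B cells, had the largest rise: 67.0 to 149 on young arrays (median 113) and 139 to 320.2 on the others (median 212), 1.81-fold, 0.85 ± 0.14 on the log2 scale, adjusted p 0.00273. All but 1 array without a stage word exceeded every young array. Of the immune list, C1qb of the complement system gave 0.70 (adjusted p 0.32) and the chemokine Ccl2 0.27. No gene of its 10 tested passed in limma, and its summed level overlapped, 5826 to 8995 in young and 5341 to 10212 in no-stage-word arrays. Ptprc, the common leukocyte marker, read 54.7 to 211 over all arrays. The part of leukocyte number in the Cd74, Ctss and Cxcl13 results was not tested.

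Class II chain genes are given as values only, since arrays were chosen by one of them. The 8 tested genes of the class II and antigen loading list include RT1-Bb and the other chains, so its count of passing genes is not read as a result. Outside the chains, Ctss passed and Cd74 did not when each gene was read by its brightest probe set. The alpha chain RT1-Da (M15562_g_at) read 3193 to 4320 in young and 3749 to 5240 in no-stage-word arrays. RT1-Db1 (X53054_g_at) read 641.0 to 1058 against 752 to 1264. RT1-DMb, a peptide-exchange chain (rc_AI171966_at), read 798 to 1184 against 1009 to 1614. RT1-Ba (K02815_s_at) read 720.4 to 940 against 646 to 1113, and RT1-DMa (U31598_s_at) 594 to 867 against 486 to 1092. Each of these ranges overlapped between the labels. At low CreX the difference for these probe sets was -0.07 for RT1-Ba and -0.02 for RT1-DMa, and 0.23, 0.41 and 0.39 for RT1-Da, RT1-Db1 and RT1-DMb. Some other probe sets of these genes read otherwise there. RT1-Ba X07551cds_s_at read 527 to 768 in young and 852 to 1073 in no-stage-word arrays of low CreX. RT1-DMa Z49761_at read 86.1 to 216 against 126 to 434, and RT1-DMb U31599_at 258 to 401 against 120.0 to 286. Summed over 5 list members without Cd74, Ctss and RT1-Bb, the young arrays read 6550 to 7869 and the others 7548 to 9400.

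Klk1, tissue kallikrein, read 4160 to 6243 on young arrays (median 5383) and 5454 to 10200 on those without a stage word (median 7462). On 10 of the 11 arrays without a stage word it exceeded every young array, and it rose by 0.50 ± 0.08 (SE), 1.42-fold, adjusted p 0.00389. The second Klk1 probe set gave 0.34 and did not pass. Cldn7, a claudin of tight junctions in the distal nephron and collecting duct, read 326 to 457 on young arrays and 410.3 to 579 on the others, and rose by 0.39 ± 0.08 (SE), adjusted p 0.0151. Aqp2, the vasopressin-regulated water channel of the collecting duct, read 1706 to 2363 against 2180 to 3170 and gave 0.38, which did not pass (adjusted p 0.056).

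Of the 21 tested distal nephron and collecting duct genes only Klk1 passed, 14 lay above 0 and the median was 0.12. Their summed level was 26623 to 28987 in young and 29221 to 33288 in no-stage-word arrays, with no overlap. Without Klk1 the sums overlapped, 21526 to 23751 against 22255 to 25706. Klk1 was also the only gene to pass of 9 on the renin-angiotensin-kallikrein list, and thick ascending limb genes had 0 of 7 past the threshold, with Umod at 0.20 (adjusted p 0.41).

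**Figure D2:**
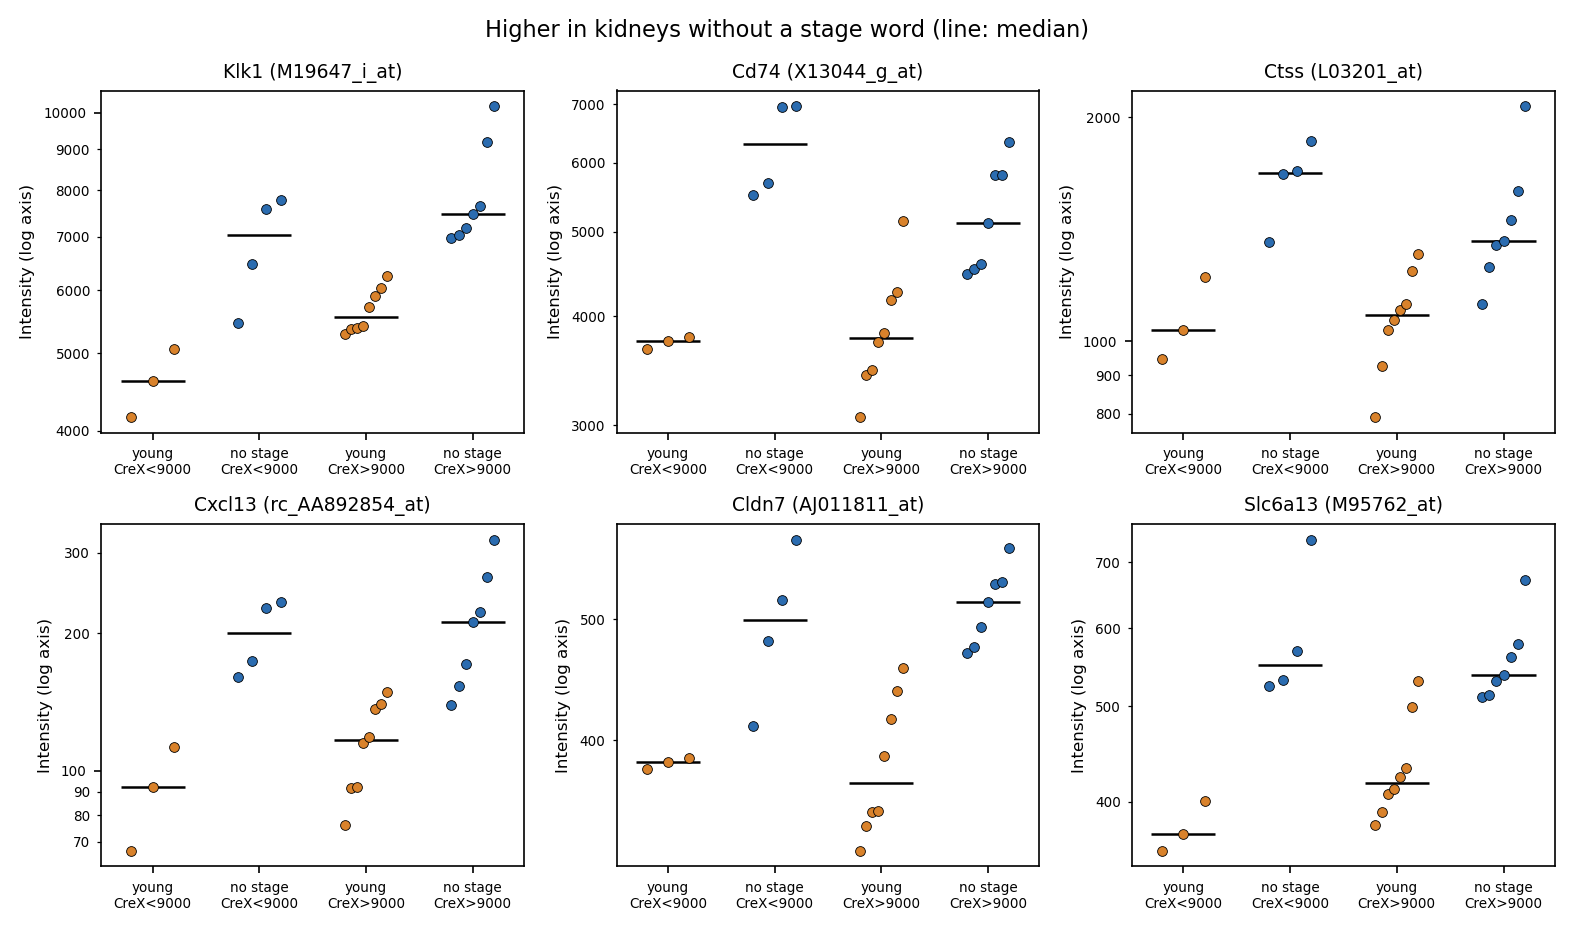
Intensity on a log axis (vertical) of 6 genes higher in kidneys without a stage word, 1 point an array, by label and CreX side, with medians as lines. Klk1 rose on both sides of the split, and Slc6a13 read 511 or more on every array without a stage word.

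The remaining higher genes were Slc6a13, a carrier of GABA, betaine and taurine, Cd82, a membrane tetraspanin, and Anp32a, a nuclear phosphoprotein. Slc6a13 read 357 to 531 on young arrays (median 407) and 511 to 738 on the others (median 538), overlapping by 4 arrays, and rose by 0.43 ± 0.09 (SE), adjusted p 0.0149. Cd82 rose by 0.40 ± 0.08, adjusted p 0.0188, and Anp32a by 0.62 ± 0.12, adjusted p 0.0151. D38380_at, annotated to 2 genes and so left unnamed, rose by 0.56 ± 0.10. Also short of the threshold were Nefm at 0.51 and Ctsd, the lysosomal protease cathepsin D, at 0.39, with adjusted p of 0.063 and 0.069.

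Most groups of kidney genes held no member past the threshold in limma, although 56 of the 358 genes on those lists had an unadjusted p below 0.05. Of 33 tested proximal tubule genes 1 passed, Slc16a1, and the median was 0.01. Of 107 solute carriers 1 rose, Slc6a13, and 1 fell, Slc16a1. No gene passed among 39 of oxidative phosphorylation, where 27 lay below 0, 42 ribosomal proteins, 24 proteasome genes, 33 glutathione and xenobiotic enzymes, 29 of fatty acid oxidation or 29 gluconeogenic and amino acid enzymes. Also short of the threshold were Ndufa4, a respiratory chain subunit, at -0.57 (adjusted p 0.055) and Idi1, of the sterol pathway, at -0.62 (adjusted p 0.057). Sterol and fatty acid synthesis had 12 of 17 below 0 and a median of -0.12.

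Markers of non-kidney tissue leaned up with none passing: 14 of 15 tested fat, adrenal, liver and muscle genes lay above 0, with a median of 0.19. Their summed level overlapped, 4596 to 8885 in young and 4999 to 8713 in no-stage-word arrays. Cyp11a1, a steroid-producing enzyme of the adrenal gland, gave 0.67 (adjusted p 0.15). Podocyte, endothelial, and smooth muscle, mesangial and fibroblast lists had 0 of 4, 0 of 7 and 0 of 10 past the threshold, with Pecam1 of endothelium at 0.31 and Acta2 of smooth muscle at 0.62. No urothelial gene passed the filter on low values. The circadian, injury and repair, interferon, eicosanoid, insulin-like growth factor, and immediate early and heat shock lists had 0 of 8, 18, 13, 23, 14 and 21, with Nr1d2, a clock repressor, at -0.46 (adjusted p 0.11).

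Some named genes tracked each other from array to array. Over the 22 arrays, which share labels and the CreX split, Top2a was most like Cdk1 (Pearson r 0.866). Cd74 was most like Ctss (0.886), then Mfge8 (0.822) and C1qb (0.785). Slc16a1 was most like Apcs (0.91), Klk1 like S100a1 (0.819), Col3a1 like Pdcd10 (0.787) and Cxcl13 like Prss8 (0.842). These are descriptions with no test.

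The 31 probe sets had the same sign on both sides of the CreX split, as did 53.9% of all probe sets tested on both sides. The 31 were called from these same arrays. Their shared sign and the separation given next are therefore largely set by that choice and are a description. None of the 31 had an interaction with CreX class past an adjusted p of 0.05 in limma, while 5 did at an unadjusted p of 0.05. Inside low CreX the labels did not overlap for 10 of the 10 higher and 19 of the 21 lower ones. That side has 3 arrays against 4, and 8.47% and 14.2% of all probe sets were wholly higher or lower there. Inside high CreX, with 8 arrays against 7, it was 3 of 10 and 5 of 21, beside 0.061% and 0.0915% of all probe sets. Col3a1 gave -1.11 ± 0.24 (SE) at low CreX and -0.81 ± 0.17 at high CreX. Top2a gave -1.03 ± 0.17 and -0.56 ± 0.14, and Klk1 0.55 ± 0.17 and 0.48 ± 0.10. Col1a1 was the reverse, with -0.31 ± 0.20 at low and -0.89 ± 0.16 at high CreX. Cdk1 gave -0.92 ± 0.18 at low and -0.51 ± 0.17 at high CreX, and Smc4 -1.30 ± 0.30 and -0.73 ± 0.18. Cd74 gave 0.74 ± 0.15 and 0.43 ± 0.12, Ctss 0.62 ± 0.16 and 0.43 ± 0.14, and Cxcl13 1.02 ± 0.20 and 0.78 ± 0.17. In a fit of the high CreX arrays alone only 2 probe sets passed (0.0305%), AF007758_g_at and U75405UTR#1_f_at, both lower, and 394 passed an unadjusted p of 0.05.

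Many other probe sets differed between the labels at low CreX. Inside those 7 arrays 145 probe sets passed (2.21%), 29 higher (0.442%) and 116 lower (1.77%). In the 22 arrays 69 probe sets (1.05%) had an interaction of label and CreX class past the threshold. All 66 of these tested inside both classes differed more at low CreX, 56 of the 69 being lower and 13 higher without a stage word there. The count of 145 was 7, 12 and 13 without young replicates 4, 13 and 3, 48 and 92 without no-stage-word replicates 1 and 9, and 61, 23 higher and 38 lower, after centring each array on its median. The genes named next were chosen after their values were seen.

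Vegfa, the vascular growth factor made by podocytes and tubules, read 828.0, 858 and 815 on the 3 young arrays of low CreX and 228, 310.0, 218 and 188 on the 4 without a stage word (rc_AA850734_at). On the high CreX arrays it read 131 to 243 in young and 132 to 215 in no-stage-word arrays. The young arrays of low CreX thus lay above all other 19 members, and the difference was -1.78 ± 0.18 (SE) at low and -0.21 ± 0.13 at high CreX, interaction adjusted p 0.00163. Irf3, a transcription factor of the interferon response, gave a like picture, with 1072, 968 and 940 against 208, 232, 376 and 67.4 at low CreX, and 42.7 to 197 against 63.0 to 82.2 at high CreX. Its difference was -2.29 ± 0.44 at low CreX and 0.01 ± 0.21 at high CreX.

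Several RNA-binding proteins were among the largest falls at low CreX. Srsf5, a splicing factor, read 2193, 2373 and 1880 on the young arrays and 673, 790, 595 and 323 on the others, a difference of -1.89 ± 0.28 (SE). Pnn, a protein of the exon junction and splicing machinery, gave -1.85 ± 0.19, and the RNA-binding proteins Hnrnpa2b1 and Hnrnpa1 gave -1.83 ± 0.23 and -1.75 ± 0.23. At high CreX the same 4 probe sets gave -0.02, -0.06, -0.12 and -0.16. No list of splicing genes was tested.

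Stk25, Pdpk1 and Gsk3b were among the rises at low CreX, and no list of protein kinases was tested. Stk25, a kinase of the Ste20 family, read 17.9, 15.8 and 11.1 on the young arrays and 132, 131, 172 and 128 on the others, a difference of 2.35 ± 0.16 (SE). Pdpk1, which activates Akt, read 47.6, 81.8 and 53.4 against 174, 204, 175 and 330, and Gsk3b, a kinase inhibited by insulin signalling, 93.3, 95.5 and 119 against 200.0, 179, 271 and 314. At high CreX the differences were -0.10, -0.01 and 0.17. In all 3 genes the young arrays of low CreX were the low ones and every other array, of either label, was brighter. The nearest to them was young replicate 12 at 39.0 for Stk25. The young readings of Stk25 are about the size of the offset of 15.82, so its difference depends on that offset: it was 1.22 with an offset of 0.5 of the median and 3.12 with 0.01. For Pdpk1 these were 1.08 and 1.82, and for Gsk3b 0.80 and 1.19, the last with a limma adjusted p of 0.0563.

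RNA readouts moved with the label on the same side. The 5S ribosomal control read 173 to 279 on the 3 young arrays of low CreX and 403 to 537 on the 4 without a stage word, and the probe set that includes 18S read 17.6 to 59.2 against 76.5 to 224. The summed endothelial level was 2025 to 2216 against 1641 to 1697, Vegfa being 1 of its 7 members, but 1167 to 1402 against 1356 to 1509 over the other 6. At high CreX both readouts overlapped, 258 to 729 against 256 to 762 for 5S and 57.2 to 4874 against 67.4 to 12858 for 18S. The 3′/5′ ratio of GAPDH, a sign of RNA integrity, lay between 0.88 and 1.23 on all 22 arrays. At low CreX it was 0.92 to 1.03 in young and 0.997 to 1.23 in no-stage-word arrays, and the median intensity of an array 154.5 to 171 against 136.0 to 160. An exact permutation test of 8 such readouts, 2-sided and within CreX class over 225225 arrangements, gave its smallest p for 5S, 0.0708, or 0.566 after adjustment. That test pools the 2 sides of the split, so it does not test the low CreX side alone. The part of these readouts in the differences at low CreX was not tested.

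**Figure D3:**
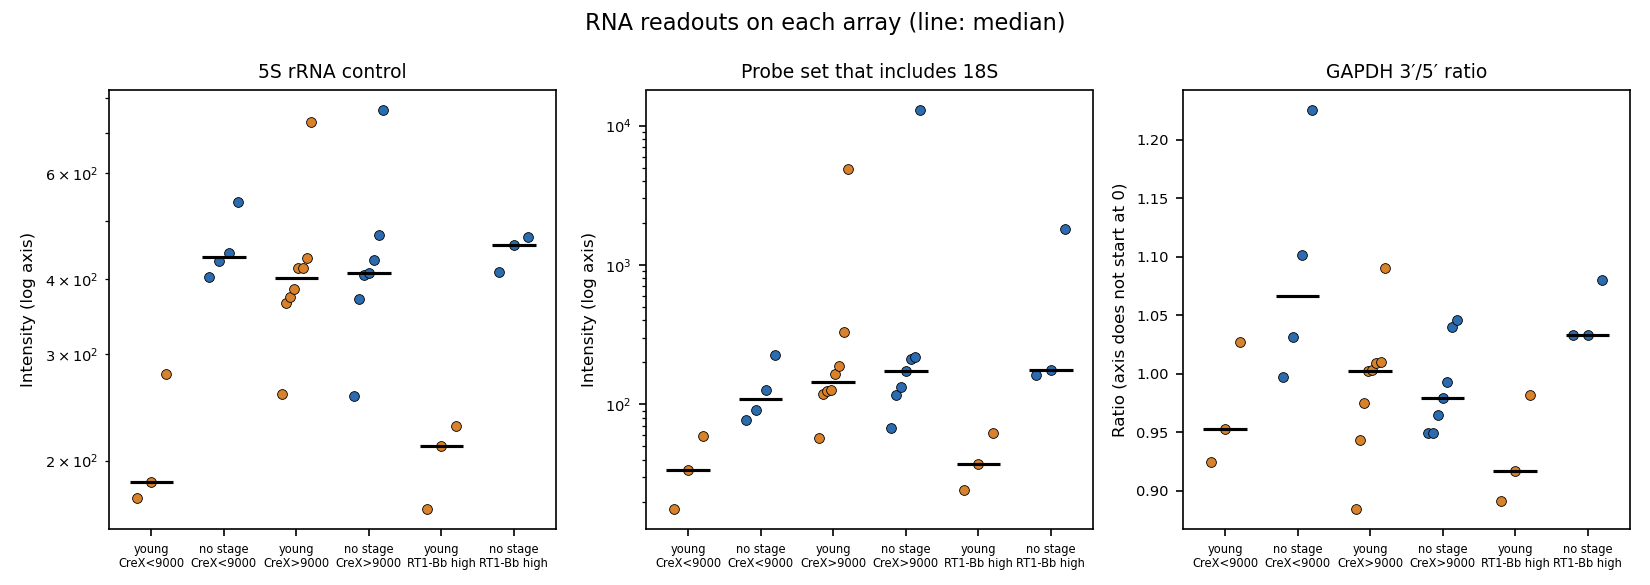
The 5S control, the probe set that includes 18S (intensity, log axes) and the GAPDH 3′/5′ ratio on each of the 22 arrays and the 6 arrays of high RT1-Bb, by label, with medians as lines. The young arrays of low CreX and of high RT1-Bb read 166 to 279 for 5S, and the arrays without a stage word beside them 403 to 537.

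The same contrast was made in the 6 arrays of these labels that the RT1-Bb rule left out, 3 young and 3 without a stage word, all of low CreX and none shared with the 22. There 715 probe sets passed (10.9%), 225 higher (3.43%) and 490 lower (7.48%), or 240 higher and 276 lower after quantile normalization, which moved the median of all probe sets from -0.09 to 0.00. The count was 176 to 354 whichever array was left out. Of the 31 probe sets called in the low RT1-Bb arrays, 30 had the same sign there and 20 passed, 64.5% of the 31 and 2.8% of the 715. Over all probe sets tested in both fits 61.4% had the same sign. Col3a1 read 946, 991 and 1154 on the young and 343, 482 and 487 on the other arrays, a difference of -1.22 ± 0.17 (SE), adjusted p 0.011. Klk1 read 3621, 3920.1 and 4021 against 6711, 7108 and 7557, and Cd74 2430, 2443 and 2596 against 4639, 4661 and 4664. The differences were 0.88 ± 0.11 for Klk1 and 0.90 ± 0.10 for Cd74.

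Cxcl13 was the exception. It read 32.6, 71.2 and 90.8 on the young and 35.5, 47.1 and 62.1 on the other arrays, a difference of -0.28 ± 0.31 (SE) with an adjusted p of 0.59. Its interaction with RT1-Bb class was 1.13 ± 0.32 (SE) and did not pass (limma adjusted p 0.313).

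Of the 145 probe sets called at low CreX among the 22 arrays, 137 of 143 had the same sign in the high RT1-Bb arrays and 91 passed there, 62.8% of the 145 and 12.7% of the 715. All tested probe sets had the same sign in 70.2% of cases. Between the high CreX side of the 22 arrays and the high RT1-Bb arrays this share was 50.2%. Vegfa read 701, 832.0 and 858 on the young arrays against 192, 206 and 236, and Stk25 7.7, 11.6 and 36.8 against 135, 176 and 192. The 5S control differed there too, 166 to 229 against 412 to 471, as did the 18S probe set, 24.2 to 61.9 against 162 to 1798. The GAPDH 3′/5′ ratio was 0.89 to 0.98 against 1.03 to 1.08, the BioC control 391 to 485 against 292 to 319, and median intensity 156 to 164 against 143 to 146. None of these readouts overlapped between the labels, but others did. The actin 3′/5′ ratio was 1.264 to 1.503 in young and 1.2 to 1.371 in no-stage-word arrays of high RT1-Bb. BioB read 124.3 to 129.7 against 119.3 to 184.3, and CreX 7277 to 8138 against 5307 to 8023. With 3 arrays a label the separation itself was not tested, nor was the part of any of these readouts.

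The difference between labels itself differed by RT1-Bb class for 5 probe sets (0.0763%). Besides Irf3 (interaction 3.13 on the log2 scale) these were Gp2, a membrane glycoprotein (1.12), Dcaf6 (-0.82) and the unnamed AF050660UTR#1_at (2.92) and rc_AA859897_at (0.88). Gp2 read 68.2 to 158 in young and 97.9 to 147 in no-stage-word arrays of low RT1-Bb, but 119.0, 119 and 125 against 46.7, 51.6 and 71.3 in those of high RT1-Bb. Since every high RT1-Bb array was of low CreX, the test was repeated among low CreX arrays, where 0 passed in limma and 406 had an unadjusted p below 0.05.

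The named genes had the following levels under the other labels, among arrays of RT1-Bb below 600. Mean log2 intensity (± SD) of Col3a1 was 10.64 ± 0.48 in 10 immature, 9.76 ± 0.32 in 11 young, 8.85 ± 0.34 in 11 no-stage-word and 8.15 ± 1.07 in 11 mature arrays. For Top2a these means were 8.80, 8.33, 7.62 and 7.38, and for Cdk1 7.88, 7.50, 6.87 and 6.54. Klk1 gave 12.34, 12.39, 12.87 and 13.18. In these genes the no-stage-word mean lay between young and mature, within 1 SD of the mature mean.

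Other genes were ordered differently. Cldn7 gave 8.96, 8.63, 9.03 and 8.61, so that the no-stage-word mean was highest, and Anp32a gave 10.21, 8.41, 8.99 and 9.10, highest in immature kidney. Cxcl13 gave 6.10, 6.92, 7.76 and 7.69. All 11 mature arrays were of high CreX and 7 of the 10 immature ones of low CreX, so these levels carry the split and no test was made. Of the mature arrays 2 had a GAPDH 3′/5′ ratio above 3, and 7 immature arrays an 18S signal above 4000.

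**Figure D4:**
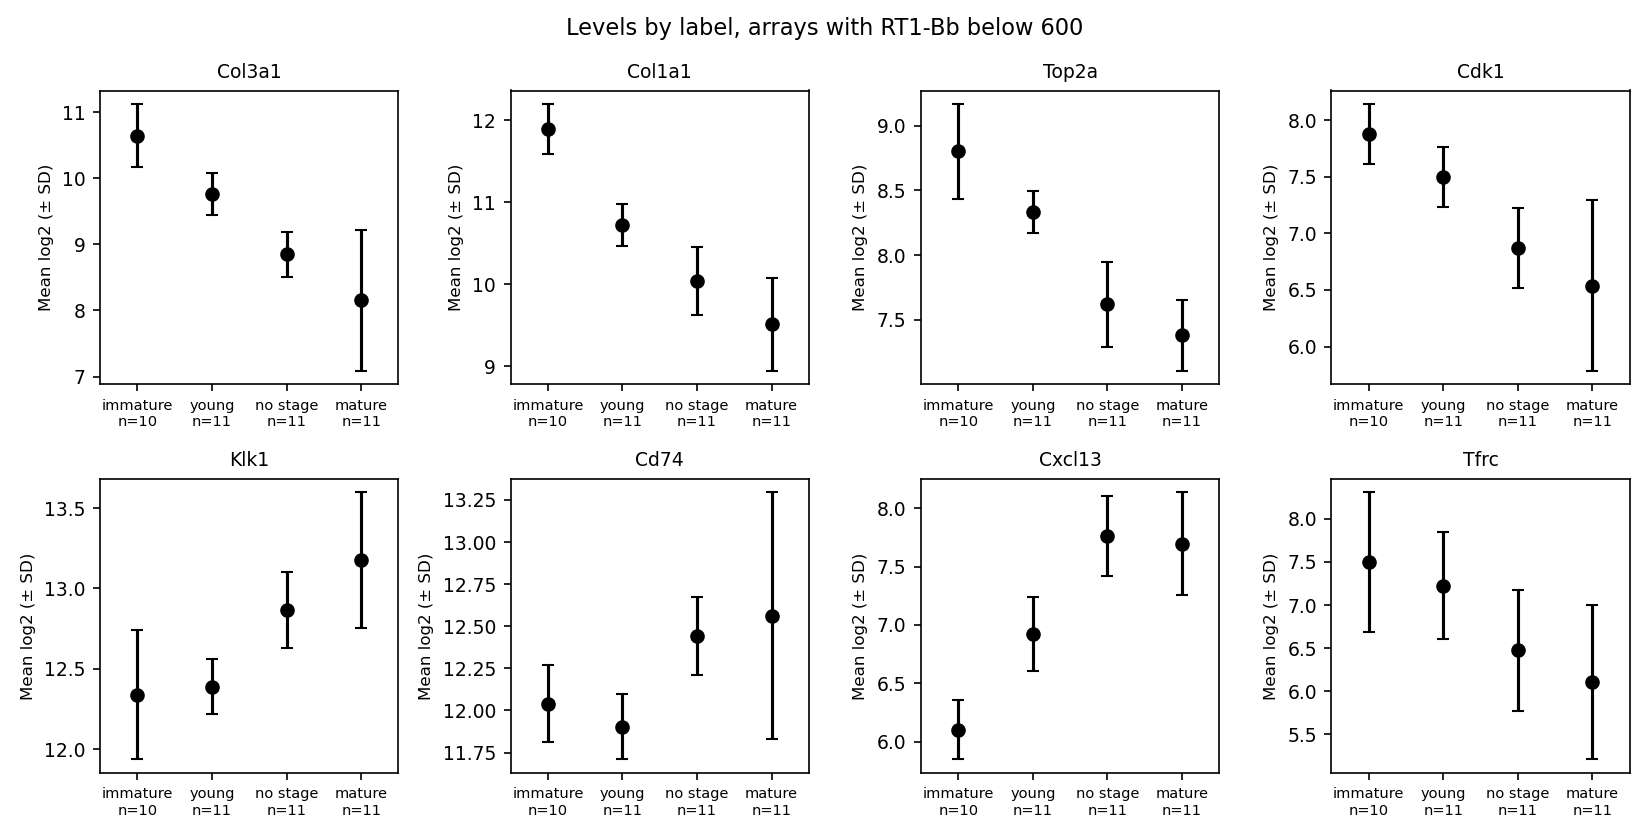
Mean log2 intensity (± SD) of 8 genes by label, arrays with RT1-Bb below 600 (10 immature, 11 each of young, no stage word and mature); each panel has its own axis, which does not start at 0. Col3a1, Col1a1, Top2a, Cdk1 and Tfrc step down from immature to mature, and Klk1 steps up from young to mature.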

How the data were processed

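Kidney RNA was hybridised to 1-colour Affymetrix arrays. The authors deposited linear intensities, and how probes were summarised and scaled is not given in the sources used here. Every one of the 22 arrays had a 2% trimmed mean of 500.0, so no further scaling was applied, and their median intensity was 136.0 to 183.3. Before log2 an offset of 15.82, which is 0.1 of the overall median, was added, so folds are on that scale and come out too small for dim genes. Left out were 59 controls and probe sets below the 25th percentile of mean log2, leaving 6555. The platform annotation gave 7018 of 8799 probe sets 1 symbol and 308 several, and named no gene for 1473. Names were looked up in RefSeq through the gene identifier (6994 found), and probe sets with several symbols stayed unnamed.

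limma 3.58.1 in R 4.3.3 (lmFit, eBayes) tested the label with CreX class as an additive term, 2-sided, with Benjamini-Hochberg adjustment over all probe sets and a threshold of 0.05. Separate fits tested the interactions, each CreX class and the high RT1-Bb arrays. Named genes were the 15 largest rises and 15 largest falls past the threshold (1 probe set a gene, the brightest), unadjusted-p runners-up where fewer than 10 passed, and up to 4 members of each of 28 gene lists. Other called probe sets are named as well. The comparison, members and lists were chosen with earlier results of these data known. On simulated data the comparison of all 22 arrays recovered 65.7%, 96.9% and 100% of changes of 0.5, 1 and 2 on the log2 scale. Inside low CreX it was 1.52%, 38.5% and 95.1%, and inside high CreX 41.8%, 88.9% and 100%. The simulated noise was normal and independent between arrays and probe sets, and the label acted alike on both sides of the CreX split. The real arrays held interactions with that split, so these shares may not carry over to them. Correlations among the 22 arrays were 0.905 to 0.987, no pair of arrays in the series was identical, and 21 of 22 arrays were most like one of the same CreX class, 14 like one of the same label. Alternatives changed the covariate, offset, filter, scaling, weights, prior and arrays. The number of arrays limits precision. Figures used matplotlib 3.10.9.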

Additional observations from a re-analysis of the deposited data

Results flagged for a closer look

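Of 117 sets of values (1 probe set or readout within 1 label and CreX side) 12 had an array far from the rest by Dixon's test, where chance gives about 1 in 20. Young replicate 12 was far from the other young arrays of high CreX in 5 of them: 4874 for the 18S probe set, 28387 for CreX, 657 for BioB, 1354 for BioC and 587 for the unnamed rc_AI012604_at. No-stage-word replicate 14 read 12858 for 18S and 525.5 for Col1a1. No-stage-word replicate 10, among arrays of low CreX, read 753 for BioC, 1724 for Mfge8 and 187 for rc_AI008836_s_at, for which no-stage-word replicate 6 read 104 among those of high CreX. Young replicate 5 read 272 for D38380_at.

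The difference between labels itself differed by CreX class for 8 of the genes named here, given as the difference at high minus that at low CreX. It was 2.30 for Irf3, 1.87 for Srsf5, 1.79 for Pnn, 1.75 for Nktr and 1.56 and 1.34 for 2 probe sets of Vegfa, which fell at low CreX, and -2.44 for Stk25, -1.61 for Pdpk1 and -0.92 for Gsk3b, which rose there. By RT1-Bb class, as low minus high, it was 3.13 for Irf3, 2.92 for AF050660UTR#1_at, 1.12 for Gp2, 0.88 for rc_AA859897_at and -0.82 for Dcaf6.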

How the results depend on the processing

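None of the 31 called probe sets changed direction in any alternative tried. Their number was 19 with no covariate or with each array centred on its median, 111 with array weights, 51 with a trended robust prior, 12 with all 55 arrays in 1 model and 62 without the arrays of 18S above 4000. It was 145 at low and 2 at high CreX, and 3 without the 3 young arrays of low CreX. Leaving out 1 array gave 18 to 61: 18 without young replicate 4 or young replicate 13, 48 without young replicate 6 and 61 without young replicate 12. Of the 31, 18 stayed called whichever array was left out. RT1-Bb thresholds of 400 or 800 leave the same 22 arrays.

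The 69 interactions with CreX class became 20 after quantile normalization and 117 without the arrays of high 18S. The 145 at low CreX became 259 and 48 with offsets of 0.5 and 0.01 of the median, 82 with no filter, 63 after quantile normalization and 61 after median centring. Leaving out 1 array gave 7 to 152: 7 without young replicate 4, 12 and 13 without young replicates 13 and 3, 48 and 92 without no-stage-word replicates 1 and 9. The 2 at high CreX became 4 with the larger offset, 8 without high 18S, and 1 to 6 without 1 array (1 without young replicate 8 or no-stage-word replicates 2 or 3, 5 and 6 without no-stage-word replicates 11 and 14). The 715 at high RT1-Bb were 176 to 354 without 1 array, below 715 whichever was left out. The 5 interactions with RT1-Bb class became 3 after quantile normalization, 10 without high 18S and 0 at low CreX. Alternatives at low and high CreX, the one without the 3 young arrays and those without high 18S in the interactions were chosen after seeing the data. The causes were not tested.

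Direction changed for probe sets that had not passed. At high CreX, and equally without the 3 young arrays of low CreX, these were Irf3 0.0073, Nktr 0.0164, Ints6l 0.39, Wt1 0.12, rc_AA859897_at 0.0343, Dcaf6 -0.0216, Vps39 -0.0429, Pdpk1 -0.0051 and Stk25 -0.10. At low CreX they were Gp2 -0.16, Umod -0.0112 and Cyp2c11 -0.23. rc_AA859897_at gave 0.0015 with no covariate, and -0.0335 to 0.0131 without 1 array, above 0 without young replicate 9 or no-stage-word replicates 7 or 9. No paired analysis was possible because the arrays' title numbers run on through the labels, and the replicate numbers used here were given in accession order and pair nothing.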
